A study of Mus musculus with 19 samples.

Results

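Markers of hepatic stellate cells and fibroblasts were followed in mouse liver RNA as 10 genes: Lum, Dcn, Des, Lrat, Reln, Pdgfrb, Vcam1, Tnc, Acta2 and Rgs5. They were taken by symbol from a count table of 24421 genes, collagens left out, and all 10 had a row in it. The livers came from 4 groups of mice on a purified diet. An antisense oligonucleotide (ASO), which binds a matching RNA and lowers its level, had been injected 2 times a week over 3 weeks. Re-fed PLIN5 ASO livers (5 libraries) and re-fed control ASO livers (5 libraries) were taken 4 h after food was returned to fasted mice. Fasted PLIN5 ASO livers (5 libraries) and fasted control ASO livers (4 libraries, numbered 1, 3, 4 and 5) were taken after the overnight fast alone. Every group thus had an oligonucleotide and a fast, and no group was uninjected or fed freely. Strain, sex, age and the oligonucleotide sequences were not given in the sources used here, and only 1 oligonucleotide against Plin5 was named.

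Hepatic stellate cells lie between hepatocytes and the sinusoidal endothelium, where they store vitamin A as retinyl esters. In injured liver they are known to lose these stores, to take up a contractile, fibroblast-like state and to lay down matrix. Portal fibroblasts, pericytes and vascular smooth muscle cells share many of their genes, so none of the 10 markers belongs to 1 cell type alone. Plin5 encodes perilipin 5, a lipid droplet coat protein, and the series title asks about its part in autophagy during fasting and in inflammation caused by fatty acids.

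Plin5 averaged 7.74 CPM ± 3.20 in re-fed PLIN5 ASO livers and 37.5 CPM ± 10.8 in re-fed control ASO livers (SD, n = 5 each). It averaged 9.13 CPM ± 3.44 in fasted PLIN5 ASO livers (SD, n = 5) and 36.9 CPM ± 1.52 in fasted control ASO livers (SD, n = 4), where CPM is the count scaled to 1e6 per library. Total counts were 24.9 to 66.9 in units of 1e6, the highest in re-fed PLIN5 ASO 5. Hepatocyte markers summed to 93968 to 159926 CPM in the 19 libraries, and each of the 11 that had a row was above 0 in every library. The labels do not say that replicates are separate animals, and p-values then measure only the spread between these samples. In 4 libraries, fasted PLIN5 ASO 3 and 5 and re-fed control ASO 3 and 5, the clock gene Arntl stood at 14.6 to 45.0 CPM, against 0.566 to 4.87 CPM in the other 15. They are called clock-shifted here. For the stellate cell and fibroblast markers, results that change without these libraries are given both ways. Calls of the other genes named below were not repeated without these libraries. Fasted control ASO 3 and 4 were closer to each other (chi-square per degree of freedom 3.27) than any other pair of libraries within a group (next 19.5), and are also treated below as 1 sample.

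Per length of transcript, Dcn stood far above the rest. Dcn, which encodes the matrix proteoglycan decorin, averaged 56.6 FPKM ± 11.4 (SD over 19 libraries; FPKM is fragments per kilobase, scaled to 1e6 fragments). Next came Lum at 2.68 FPKM ± 1.09, Reln at 2.05 ± 0.314, Vcam1 at 1.96 ± 0.862 and Lrat at 1.88 ± 0.405. Rgs5 averaged 1.40 FPKM ± 0.532, Acta2 1.35 ± 1.66, Pdgfrb 1.18 ± 0.206 and Des 1.08 ± 0.276. Tnc was lowest at 0.0850 FPKM ± 0.0458. From Lum down to Des, each gene lay closer to its neighbour in this order than the larger SD of the pair, so neighbours are not resolved, while genes farther apart, such as Reln and Des, differed by more than either SD. The steps from Dcn to Lum and from Des to Tnc were larger than those SDs. All 10 passed the filter on low counts and were tested among 13293 genes.

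The 10 genes lie on 7 chromosomes of mouse genome build GRCm38. Lum (chromosome 10, 97565128 to 97572703, plus strand) and Dcn (chromosome 10, 97479609 to 97518143, plus strand) are neighbours, 46984 nt apart with 0 annotated protein-coding genes between them. Tnc lies on chromosome 4 (63959785 to 64047015, minus strand, 26 exons in its longest coding transcript), and Vcam1 (116109949 to 116129688) and Lrat (82892579 to 82903973) lie on the minus strand of chromosome 3. Des (75360329 to 75368579) and Rgs5 (169655501 to 169695813) are on the plus strand of chromosome 1. Reln spans 21884454 to 22344702 on the minus strand of chromosome 5 with 65 exons, Pdgfrb 61045150 to 61085061 on the plus strand of chromosome 18, and Acta2 34241090 to 34255590 on the minus strand of chromosome 19. Des, Lrat, Reln, Vcam1 and Tnc overlap annotated genes of the opposite strand. Whether counting used the strand is not given, so reads of such pairs cannot be told apart. The partner of Lrat, Rbm46os, had at most 2 counts in a library and the partner of Des, Gm15179, had 0. The partners of Tnc, 8030451A03Rik, and of Vcam1, Gm43109, had no row in the count table, so their reads could not be checked.

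**Figure D1:**
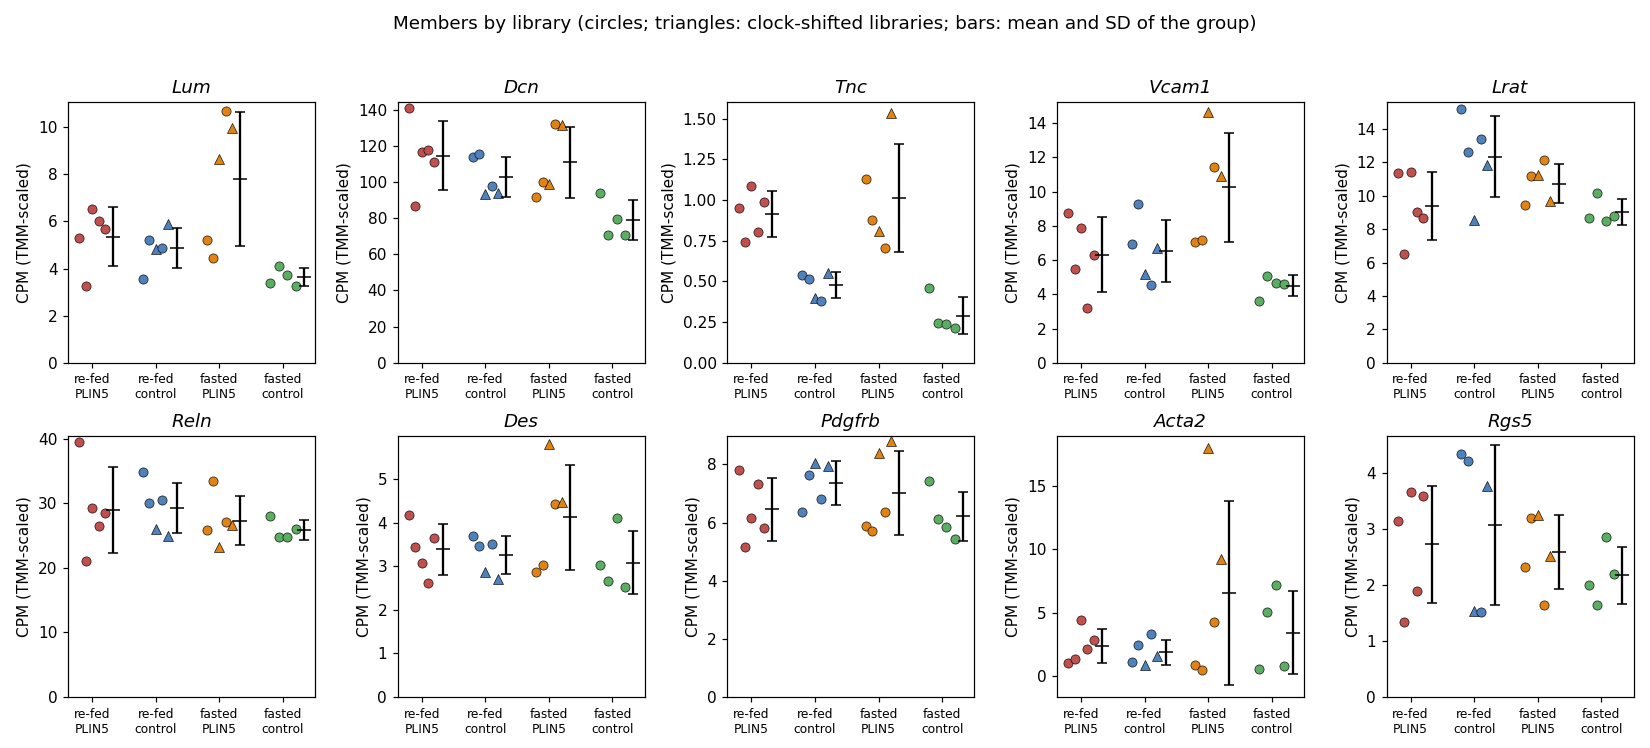
CPM on TMM-scaled libraries of each of the 10 genes (vertical axes start at 0 except where the SD bar of Acta2 passes below it), by group on the horizontal axis. Circles are libraries, triangles are the 4 clock-shifted libraries, and black bars are the group mean and SD. All 5 fasted PLIN5 ASO libraries lie above all 4 fasted control ASO libraries for Lum, Tnc and Vcam1, and for Tnc the same holds for re-fed PLIN5 ASO against re-fed control ASO.

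In fasted liver, 3 of the 10 markers were higher with PLIN5 ASO than with control ASO and 0 were lower. Those 3 were Tnc, Lum and Vcam1, at 3.44-fold, 2.15-fold and 2.28-fold. Of all 13293 genes, 1.17% were called in either direction in this comparison and 0.602% were called higher. Calls throughout are at an adjusted p under 0.05 in edgeR's quasi-likelihood test, with Benjamini-Hochberg adjustment over all genes tested. All 10 markers had a positive log2 fold change, with a median of 0.46 against 0.01 over all genes, and 52.0% of all genes had a positive one. In whole liver, more cells of a type and more RNA per cell cannot be told apart. Tnc and Lum encode matrix proteins and Vcam1 an adhesion molecule. Lrat, Reln and Des, which mark the stellate cell at rest, did not pass.

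Tnc encodes tenascin C, a matrix glycoprotein that is scarce in most adult tissues and is known to appear in injured or remodelling ones. It had 1.13, 0.879, 0.812, 0.702 and 1.54 CPM in fasted PLIN5 ASO livers 1 to 5, against 0.457, 0.244, 0.240 and 0.212 CPM in fasted control ASO livers 1, 3, 4 and 5. Every PLIN5 ASO library was above every control ASO library, and control ASO 1 stood apart above the other controls. The log2 fold change was 1.78 (SE 0.29, 95% confidence interval 1.17 to 2.39; edgeR's adjusted p = 0.00707, higher in 5 of 5 libraries). It rests on few reads, 20 to 44 per PLIN5 ASO library and 6 to 16 per control ASO library. Tnc was called in all 29 alternatives that tested it, with adjusted p up to 0.0469 in edgeR fitted on the fasted groups alone. Without the clock-shifted libraries its log2 fold change was 1.62 (adjusted p = 0.0299 in edgeR).

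RefSeq lists 2 starts for Tnc. The 250 bases before the upstream one are shown because Tnc is the member whose ASO groups did not overlap in either feeding state. They lie at chr4:64047016-64047265 on the minus strand (GRCm38.p6), with capitals at the TATAAA motif.
Tnc promoter: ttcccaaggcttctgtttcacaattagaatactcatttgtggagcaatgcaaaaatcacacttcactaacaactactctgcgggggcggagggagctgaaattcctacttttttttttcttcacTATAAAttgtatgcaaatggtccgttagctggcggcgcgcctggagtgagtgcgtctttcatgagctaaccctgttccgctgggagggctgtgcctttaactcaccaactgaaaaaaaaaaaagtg
TATAAA, looked for on both strands, begins 126 bases before this start (205 before the other), and 12.4% of the 32851 RefSeq promoters hold it. TGANTCA, which is in 6.75% of promoters, does not occur in this window on either strand. RefSeq promoters matched 6 of the 10 genes, Des, Lrat, Reln, Tnc, Acta2 and Rgs5; those of Lum, Dcn, Pdgfrb and Vcam1 are not shown.

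Lum encodes lumican, a small leucine-rich proteoglycan that binds collagen fibrils. It had 5.19, 4.46, 8.67, 10.7 and 9.98 CPM in fasted PLIN5 ASO livers 1 to 5, against 3.40, 4.12, 3.72 and 3.26 CPM in fasted control ASO livers. The groups did not overlap, PLIN5 ASO 3, 4 and 5 were the highest, and PLIN5 ASO 1 and 2 lay closer to the controls. The log2 fold change was 1.10 (SE 0.24, 95% confidence interval 0.60 to 1.61; edgeR's adjusted p = 0.0275, higher in 5 of 5 libraries). Its neighbour Dcn, whose protein also binds collagen and holds transforming growth factor beta, had 91.5, 100.2, 99.0, 132 and 132 CPM in fasted PLIN5 ASO livers, against 94.2, 70.9, 79.4 and 70.7 CPM in fasted control ASO livers. Only PLIN5 ASO 1 fell within the range of the controls. Dcn stood at 0.49 on the log2 scale (SE 0.14) and did not pass in edgeR (adjusted p = 0.0886), while DESeq2 called it (adjusted p = 0.0234).

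Vcam1 encodes an adhesion molecule that binds integrins of leukocytes and is known on activated endothelium, stellate cells and macrophages. It had 7.06, 7.20, 14.7, 11.4 and 10.9 CPM in fasted PLIN5 ASO livers 1 to 5, against 3.63, 5.07, 4.65 and 4.60 CPM in fasted control ASO livers. The groups did not overlap, and PLIN5 ASO 3, 4 and 5 were again the highest. The log2 fold change was 1.19 (SE 0.27, 95% confidence interval 0.63 to 1.75; edgeR's adjusted p = 0.0334, higher in 5 of 5 libraries). Over all genes, 2.87% had every fasted PLIN5 ASO library above every fasted control ASO library, and 3 of the 10 markers did. The calls of Lum and Vcam1 were lost when some single libraries were left out. With any 1 library left out, the log2 fold change stayed at 0.957 to 1.25 for Lum and 1.03 to 1.30 for Vcam1. Leaving out any 1 of fasted control ASO 1, 3, 4 or 5 or of fasted PLIN5 ASO 3, 4 or 5 ended both calls, with adjusted p of 0.0631 to 0.104 for Lum and 0.0630 to 0.107 for Vcam1 in edgeR. Without the clock-shifted libraries the log2 fold changes were 0.90 for Lum (adjusted p = 0.138) and 0.93 for Vcam1 (adjusted p = 0.152), and with control ASO 3 and 4 as 1 sample 1.14 (adjusted p = 0.0782) and 1.23 (adjusted p = 0.0812), none called in edgeR. Fitted on the fasted groups alone, Lum was not called either (adjusted p = 0.0758 in edgeR).

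Macrophage markers moved with Lum and Vcam1 in fasted liver. All 17 Kupffer cell and macrophage markers had a positive log2 fold change, with a median of 0.72, and 2 rose, C1qb by 1.03 (SE 0.24, adjusted p = 0.0345) and C1qa by 0.89 (SE 0.21, adjusted p = 0.0424 in edgeR), which encode chains of complement C1q. Their summed level was 258, 229, 558, 293 and 403 CPM in fasted PLIN5 ASO livers 1 to 5, against 218, 221, 230 and 232 CPM in fasted control ASO livers, and none of the 17 was at 0 in any library. Liver endothelial markers went the other way, with a median of -0.36 over 19 genes and 0 called, and summed to 211 to 290 CPM in PLIN5 ASO livers and to 243 to 327 CPM in control ASO livers. At an unadjusted p under 0.05 the macrophage list held 10 higher and 0 lower. The endothelial list held 1 higher and 7 lower, where 15.1% of all genes passed. The part of both lists in the marker results was not tested.

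The retinoid and resting stellate cell markers lay close together in the fasted groups. Lrat, whose enzyme lecithin retinol acyltransferase makes the retinyl esters that stellate cells store, had 9.45, 11.2, 11.3, 12.1 and 9.67 CPM in fasted PLIN5 ASO livers, against 8.68, 10.2, 8.50 and 8.82 CPM in fasted control ASO livers. Its log2 fold change was 0.25 (SE 0.16, adjusted p = 0.495 in edgeR), and the groups overlapped through PLIN5 ASO 1 and 5. Reln, which encodes the secreted glycoprotein reelin, had 25.9, 33.5, 23.2, 27.1 and 26.6 CPM in fasted PLIN5 ASO livers, against 28.0, 24.7, 24.7 and 25.9 CPM in fasted control ASO livers, with library 2 alone above the controls. The log2 fold change of Reln was 0.08 (SE 0.14, 95% confidence interval -0.22 to 0.37). Des, which encodes the intermediate filament protein desmin, had 2.86, 3.03, 5.81, 4.42 and 4.47 CPM in fasted PLIN5 ASO livers, against 3.03, 2.66, 4.11 and 2.51 CPM in fasted control ASO livers. Its highest values were again in PLIN5 ASO 3, 4 and 5, and its log2 fold change was 0.42 (SE 0.21, adjusted p = 0.349 in edgeR).

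The receptor and mural cell markers also did not pass in fasted liver. Pdgfrb, the receptor through which platelet-derived growth factor drives stellate cells to divide, had 5.89, 5.70, 8.38, 6.35 and 8.79 CPM in fasted PLIN5 ASO livers, against 7.43, 6.11, 5.85 and 5.45 CPM in fasted control ASO livers. The 2 clock-shifted libraries, PLIN5 ASO 3 and 5, were above all controls and the other 3 were among them. Its log2 fold change was 0.18 (SE 0.15, adjusted p = 0.642 in edgeR), and -0.06 without the clock-shifted libraries. Rgs5, a regulator of G protein signalling that marks pericytes, had 2.33, 3.19, 3.25, 1.65 and 2.51 CPM in fasted PLIN5 ASO livers, against 1.9998, 1.65, 2.85 and 2.19 CPM in fasted control ASO livers. Both groups of Rgs5 lay over much the same range, and its log2 fold change was 0.25 (SE 0.34, adjusted p = 0.793 in edgeR).

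Acta2, which encodes the smooth muscle actin of vessel walls and of activated stellate cells, was the most uneven of the 10. It had 0.899, 0.521, 17.99, 4.25 and 9.21 CPM in fasted PLIN5 ASO livers 1 to 5, against 0.600, 5.10, 7.20 and 0.779 CPM in fasted control ASO livers 1, 3, 4 and 5. PLIN5 ASO 3 and 5 were above every control, PLIN5 ASO 2 was below every control, and the controls themselves split into libraries 3 and 4 above and 1 and 5 below. The log2 fold change was 0.94 (SE 0.80, 95% confidence interval -0.73 to 2.61; edgeR's adjusted p = 0.635), and -0.87 without the clock-shifted libraries. Its biological coefficient of variation was 80.0%, at percentile 99.4 of all genes tested. For the other markers it ran between 15.1% for Reln and 34.2% for Rgs5, against 19.3% for all genes together.

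The promoter of Acta2 is known for CArG boxes, to which serum response factor binds in muscle. They are shown here because Myh11 and Myl9, among the genes most like Acta2 (described below), also encode parts of the smooth muscle contractile apparatus. A CArG-like box was taken as CC, 6 bases of which at least 5 are A or T, and GG, on either strand. The RefSeq promoter of Acta2 (GRCm38.p6, minus strand) holds 2, at chr19:34255438-34255467 and chr19:34255388-34255417, with the box in capitals.
Acta2 site 1: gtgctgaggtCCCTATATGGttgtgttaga
Acta2 site 2: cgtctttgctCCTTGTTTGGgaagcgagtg
Site 1 begins 84 and site 2 begins 34 bases before the RefSeq start, counted from the first base of each box. That start lies downstream of the GENCODE start given above, so both sites fall inside the GENCODE gene span. A CArG-like box is in 8.59% of the RefSeq promoters.

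**Figure D2:**
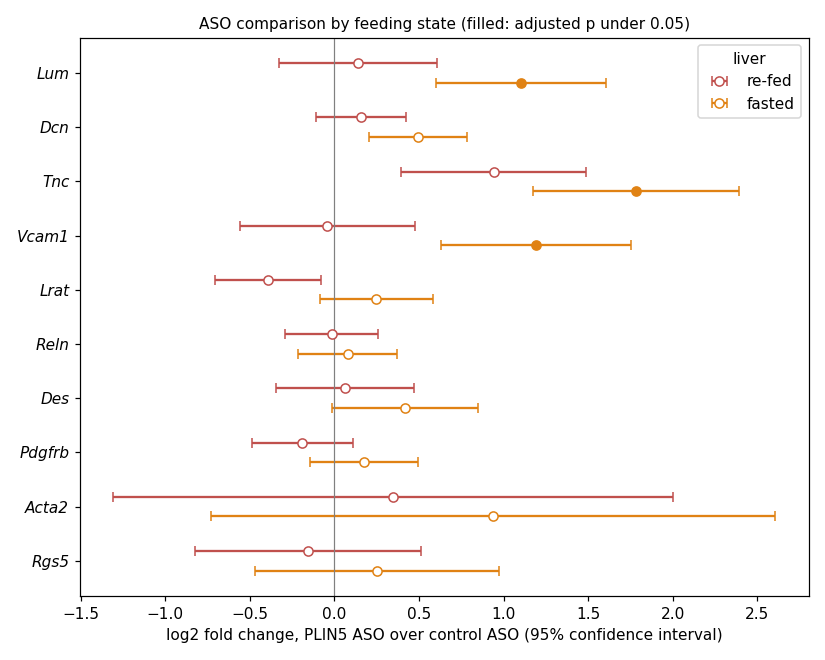
Log2 fold change of PLIN5 ASO over control ASO with its 95% confidence interval for each of the 10 genes, in re-fed liver (red) and fasted liver (orange). Filled points passed an adjusted p of 0.05 in edgeR: Tnc at 1.78, Vcam1 at 1.19 and Lum at 1.10, all in fasted liver.

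Related genes were taken from 17 lists of 236 genes beside the members, of which 200 were tested, and in fasted liver 4 of these rose and 3 fell with PLIN5 ASO (3.5%, against 1.17% of all genes). Of 17 genes of activated stellate cells and myofibroblasts, Tnc alone was called, with a median log2 fold change of 0.54 over the list. At an unadjusted p under 0.05 this list held 8 higher and 1 lower, where 15.1% of all genes passed. Of 9 small leucine-rich proteoglycans Lum alone was called higher, and of 11 adhesion genes Vcam1 alone. Of 8 genes of the tenascin family and its receptors, Tnc and the syndecan gene Sdc4 were called higher. At an unadjusted p under 0.05 these lists held 4, 2 and 4 higher and 0, 1 and 0 lower. Sdc4 rose by 0.43 on the log2 scale (SE 0.09, adjusted p = 0.0275 in edgeR), at 473 CPM ± 27.9 in PLIN5 ASO livers (SD, n = 5) and 352 CPM ± 29.8 in control ASO livers (SD, n = 4).

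Some related genes fell in the same livers. Of 14 portal fibroblast and mesothelial genes 1 fell, Gas1, a growth arrest gene, at 12.7 CPM ± 3.57 in PLIN5 ASO livers (SD, n = 5) and 27.6 CPM ± 5.69 in control ASO livers (SD, n = 4), that is -1.11 on the log2 scale (SE 0.21, adjusted p = 0.0163 in edgeR). Smad6, an inhibitor of the transforming growth factor beta pathway, which drives matrix production, fell by 0.98 on the log2 scale (SE 0.21, adjusted p = 0.0275 in edgeR). None of 14 pericyte and smooth muscle genes, 7 genes of platelet-derived growth factors and their receptors and 6 reelin pathway genes was called in edgeR; at an unadjusted p under 0.05 they held 1, 1 and 1, where 15.1% of all genes passed. Of the 8 cholangiocyte and 8 neutrophil and lymphocyte markers tested 0 were called in edgeR, with 1 and 1 at an unadjusted p under 0.05, again near the 15.1% of all genes.

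In re-fed liver 0 of the 10 markers were called between PLIN5 ASO and control ASO in edgeR, where 1.38% of all genes were called; 2 had an unadjusted p under 0.05, near the 19.01% of all genes, and DESeq2 called 1, Tnc (adjusted p = 0.0425), of the 5.01% of genes it called. Tnc had 0.949, 0.739, 1.09, 0.801 and 0.990 CPM in re-fed PLIN5 ASO livers 1 to 5, against 0.538, 0.516, 0.401, 0.380 and 0.548 CPM in re-fed control ASO livers. All 5 PLIN5 ASO libraries lay above all 5 control ASO libraries, as for 2.48% of all genes. The log2 fold change of Tnc was 0.94 (SE 0.26, 95% confidence interval 0.40 to 1.49; edgeR's adjusted p = 0.0730), on 17 to 68 reads per PLIN5 ASO library and 12 to 16 per control ASO library. The same DESeq2 fit called 4 markers in fasted liver, Tnc, Lum, Vcam1 and Dcn, of the 3.25% of genes it called there.

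Lrat was the other marker with an unadjusted p under 0.05 in re-fed liver, in the opposite direction. It had 11.3, 6.52, 11.4, 9.03 and 8.69 CPM in re-fed PLIN5 ASO livers, against 15.2, 12.7, 8.58, 13.4 and 11.9 CPM in re-fed control ASO livers. The groups overlapped through control ASO 3, and the log2 fold change was -0.39 (SE 0.15, adjusted p = 0.165 in edgeR). Lum had 5.31, 3.26, 6.51, 6.01 and 5.68 CPM in re-fed PLIN5 ASO livers, against 3.55, 5.20, 4.84, 4.88 and 5.90 CPM in re-fed control ASO livers, that is 0.14 on the log2 scale (SE 0.22, 95% confidence interval -0.33 to 0.61). Vcam1 had 8.77, 5.48, 7.85, 3.21 and 6.32 CPM in re-fed PLIN5 ASO livers, against 6.92, 9.26, 5.17, 4.56 and 6.68 CPM in re-fed control ASO livers, that is -0.04 on the log2 scale (SE 0.25, 95% confidence interval -0.56 to 0.48). Both groups of both genes thus lay over the same range after re-feeding. The remaining 6 markers had log2 fold changes between -0.19 for Pdgfrb and 0.35 for Acta2, and the median of the 10 was 0.02 against -0.01 over all genes.

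Of the 200 related genes, 1 rose and 2 fell with PLIN5 ASO in re-fed liver, 1.5% against 1.38% of all genes. Rarb, a retinoic acid receptor gene, averaged 1.61 CPM ± 0.219 in PLIN5 ASO livers and 2.99 CPM ± 0.904 in control ASO livers (SD, n = 5 each), that is -0.89 on the log2 scale (SE 0.20, adjusted p = 0.0324 in edgeR). Ttr, which encodes the plasma transport protein transthyretin and is also on the hepatocyte list, rose by 0.39 (SE 0.09, adjusted p = 0.0422). Kdr, an endothelial receptor gene, fell by 1.06 on the log2 scale (SE 0.24, adjusted p = 0.0348 in edgeR). Over the 19 endothelial markers the median was -0.30 on the log2 scale, and over the 17 macrophage markers it was -0.02.

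Re-feeding under control ASO called 0 of the 10 markers in edgeR, where 13.2% of all genes were called; 3 had an unadjusted p under 0.05, near the 28.8% of all genes. DESeq2 called 2, Dcn and Lrat, of the 17.9% of genes it called. The median log2 fold change of re-fed over fasted was 0.41 for the 10 and 0.03 over all genes, and 9 of 10 were positive against 53.3% of all genes. The ratio of long to short transcripts also differed between groups. Its mean log2 difference from the mean library was 0.192 in re-fed control ASO, -0.055 in fasted control ASO and -0.121 in re-fed PLIN5 ASO livers. Reln, Tnc, Pdgfrb and Lrat have longest coding transcripts of 5351 to 11699 nt. The markers were also fitted with offsets for transcript length, but how much this ratio adds to the median was not worked out. Over all alternatives, that fit among them, the log2 fold change ran from 0.0212 to 0.297 for Reln and 0.0340 to 1.02 for Tnc. It ran from 0.149 to 0.340 for Pdgfrb and 0.316 to 0.605 for Lrat. Dcn averaged 103 CPM ± 10.9 in re-fed control ASO livers (SD, n = 5) and 78.8 CPM ± 11.04 in fasted control ASO livers (SD, n = 4), that is 0.38 on the log2 scale (SE 0.14, adjusted p = 0.0693 in edgeR). It had 114, 116, 93.5, 97.9 and 93.8 CPM re-fed, and 2 of these lay within the range of the fasted livers, through fasted control ASO 1. Without that library Dcn was called at 0.48 (adjusted p = 0.0444 in edgeR). Lrat averaged 12.3 CPM ± 2.44 re-fed (SD, n = 5) and 9.04 CPM ± 0.765 fasted (SD, n = 4), that is 0.45 on the log2 scale (SE 0.16, adjusted p = 0.0672 in edgeR). Re-fed control ASO 3, a clock-shifted library, was the re-fed liver that fell within the fasted range of Lrat. Lrat was called without re-fed control ASO 3 (0.55, adjusted p = 0.0217) and without all clock-shifted libraries (0.61, adjusted p = 0.0278 in edgeR). Without re-fed PLIN5 ASO 2, which enters through the shared spread, both Dcn (adjusted p = 0.0423) and Lrat (adjusted p = 0.0394 in edgeR) were called. Tnc stood at 0.70 on the log2 scale (SE 0.30, adjusted p = 0.131), and Acta2 was the negative one at -0.86 (SE 0.82, adjusted p = 0.524 in edgeR).

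Re-feeding under PLIN5 ASO likewise called 0 of the 10 in edgeR, where 8.64% of all genes were called; 2 had an unadjusted p under 0.05, against 23.5% of all genes. DESeq2 called 1, Vcam1 (adjusted p = 0.0403), of the 11.4% of genes it called. The median of the 10 was -0.17 against 0.00 over all genes, and 3 of 10 were positive against 50.1% of all genes. Vcam1 averaged 6.32 CPM ± 2.16 in re-fed PLIN5 ASO livers and 10.3 CPM ± 3.20 in fasted PLIN5 ASO livers (SD, n = 5 each), that is -0.70 on the log2 scale (SE 0.25, adjusted p = 0.0856 in edgeR). Lum averaged 5.35 CPM ± 1.25 re-fed and 7.80 CPM ± 2.82 fasted (SD, n = 5 each), that is -0.54 on the log2 scale (SE 0.22, adjusted p = 0.143 in edgeR). Tnc, at 0.913 CPM ± 0.141 re-fed and 1.01 CPM ± 0.332 fasted (SD, n = 5 each), had one of -0.14 (SE 0.25), and Dcn one of 0.05 (SE 0.13). Of the 17 macrophage markers 1 was positive in the same comparison, with a median of -0.38 over the list and sums of 182 to 334 CPM in re-fed PLIN5 ASO livers and 229 to 558 CPM in fasted PLIN5 ASO livers. Under control ASO all 17 were positive, with a median of 0.25 and sums of 231 to 311 CPM in re-fed and 218 to 232 CPM in fasted livers. Their part in the marker values was not tested. The re-feeding comparisons share their libraries with the ASO comparisons.

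Whether the ASO difference itself depended on feeding was tested as an interaction. In edgeR 0 of the 10 were called, where 0.0226% of all genes were called; 4 had an unadjusted p under 0.05, against 14.98% of all genes, and DESeq2 called 0, where it called 0.666% of genes. All 10 interaction values were negative, with a median of -0.50 against -0.02 over all genes, which means that the PLIN5 ASO over control ASO ratio was lower in re-fed than in fasted liver. The sizes were -1.23 for Vcam1 (SE 0.36, adjusted p = 0.194), -0.96 for Lum (SE 0.33, adjusted p = 0.236), -0.64 for Lrat (SE 0.22, adjusted p = 0.236) and -0.84 for Tnc (SE 0.39, adjusted p = 0.323 in edgeR). The calls of Tnc, Lum and Vcam1 in fasted liver are therefore not shown to be particular to fasting. Of the 17 macrophage markers 0 were positive in the interaction, with a median of -0.73, and their part in the marker values was not tested.

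Among related genes, re-feeding under control ASO called 8 higher and 7 lower of the 200 tested, 7.5% against 13.2% of all genes. Of activated stellate cell genes 1 fell, Tpm2, which encodes a tropomyosin, at 7.38 CPM ± 4.39 re-fed (SD, n = 5) and 23.4 CPM ± 3.01 fasted (SD, n = 4), by 1.67 on the log2 scale (SE 0.40, adjusted p = 0.00992 in edgeR). Tgfbr1, a receptor of the transforming growth factor beta pathway, rose by 0.36 (SE 0.09, adjusted p = 0.0127 in edgeR). Pnpla3, whose enzyme can release retinol from its esters in stellate cells, rose by 4.30 (SE 0.64, adjusted p = 0.000312), while the lipase gene Pnpla2 and the retinoid X receptor gene Rxra fell by 0.83 and 0.30. Entpd2 of portal fibroblasts fell by 0.66 (SE 0.21, adjusted p = 0.0424), and Itgav, an integrin gene, rose by 0.41 (SE 0.11, adjusted p = 0.0162 in edgeR).

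Under PLIN5 ASO, re-feeding called 8 of these 200 higher and 8 lower, that is 8% and near the 8.64% of all genes. Tgfbr1 rose by 0.41 (SE 0.09, adjusted p = 0.00560) and Smad7, an inhibitor of that pathway, rose by 0.80 (SE 0.17, adjusted p = 0.00568 in edgeR). Itga4, which encodes the integrin chain that binds VCAM1, fell by 1.47 (SE 0.23, adjusted p = 0.000540), at 2.87 CPM ± 0.626 in re-fed PLIN5 ASO livers and 7.95 CPM ± 2.60 in fasted PLIN5 ASO livers (SD, n = 5 each). Its partner Itgb1 fell by 0.17 (SE 0.05, adjusted p = 0.0439 in edgeR). Hand2, a transcription factor gene of stellate cells, fell by 0.47 (SE 0.13, adjusted p = 0.0298), the proteoglycan gene Omd rose by 0.80 (SE 0.23, adjusted p = 0.0329), and Sdc4 fell by 0.29 (SE 0.09, adjusted p = 0.0448 in edgeR). Cnn1, which encodes the smooth muscle protein calponin, fell by 3.66 (SE 1.06, adjusted p = 0.0371 in edgeR). It had 0, 2, 6, 0 and 2 reads in re-fed PLIN5 ASO livers against 4, 2, 77, 9 and 30 in fasted PLIN5 ASO livers, so most of its reads came from fasted libraries 3 and 5.

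**Figure D3:**
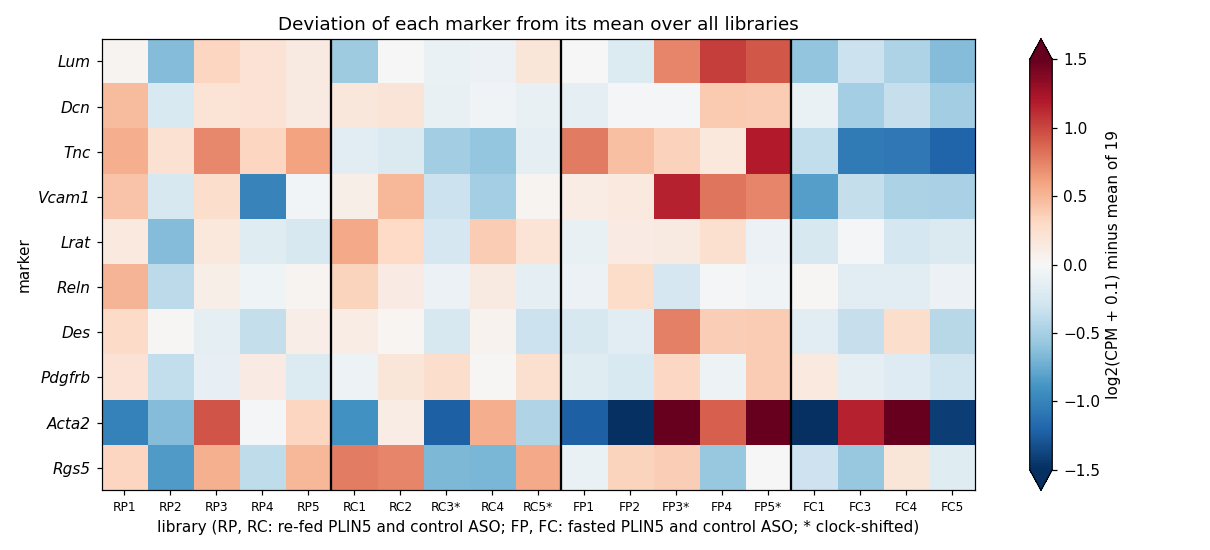
Deviation of each marker (rows) from its mean over the 19 libraries, as log2(CPM + 0.1), for each library (columns; RP and RC are re-fed PLIN5 ASO and re-fed control ASO, FP and FC fasted PLIN5 ASO and fasted control ASO, and stars mark the clock-shifted libraries). Lum and Vcam1 are highest in FP3, FP4 and FP5, every marker is below its mean in FC5, and Acta2 runs off the scale of 1.5 in both directions.

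The markers varied together from library to library, within groups too. In fasted PLIN5 ASO livers, library 3 held the highest value of 4 of the 10 markers, library 4 of 3 and library 5 of 2, and library 1 of 0. In re-fed PLIN5 ASO livers, libraries 1 and 3 held the highest value of 5 markers each, and library 2 the lowest of 7. Library 2 also had the lowest ratio of long to short transcripts of the 19 libraries (log2 difference from the mean library -0.43). Fasted control ASO 5 held the lowest value of 5 markers in its group. Of the 45 pairs of markers, 43 had a positive correlation over the 19 libraries, with a median Pearson r of 0.33, and 41 had one after the group means were taken out, with a median of 0.31. These values are a description: all markers of a library share its depth and its cell mix.

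The genes most like the mean of the 10 markers over the 19 libraries, collagens and members left out, were Sparc (Pearson r 0.90, Spearman rho 0.91), Dse (0.89 and 0.91), Pam (0.88 and 0.86), Bgn (0.86 and 0.88), Igfbp7 (0.85 and 0.84), Sdpr (0.85 and 0.84), C1qb (0.85 and 0.88) and Pcdhgc3 (0.85 and 0.85). They were picked as the highest of all genes tested, so no p is given. Sparc and Bgn encode the matrix proteins osteonectin and biglycan, and C1qb is a macrophage gene. Sparc had 42.5, 21.5, 34.05, 29.8 and 35.3 CPM in re-fed PLIN5 ASO livers, and 31.4, 31.5, 25.7, 30.9 and 28.0 CPM in re-fed control ASO livers. It had 24.8, 28.8, 40.3, 38.7 and 36.4 CPM in fasted PLIN5 ASO livers, and 22.9, 29.4, 25.1 and 22.1 CPM in fasted control ASO livers. It thus shared with the markers the low value of re-fed PLIN5 ASO 2 and the high values of fasted PLIN5 ASO 3, 4 and 5. Without the 2 libraries farthest from the median, r stayed between 0.79 and 0.89 for the 8 genes.

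Single markers had their own closest genes. Those of Lum were Adamts2 (Pearson r 0.83), whose enzyme trims procollagen, the growth factor gene Gdf10 (0.83) and C1qb (0.82). For Vcam1 they were Il18bp (0.86), which encodes a binding protein of interleukin 18, the myeloid lectin gene Clec12a (0.85) and C1qb (0.85). C1qb had 24.6, 22.9, 58.5, 33.98 and 43.0 CPM in fasted PLIN5 ASO livers, against 15.8, 18.9, 17.98 and 18.8 CPM in fasted control ASO livers. As for Vcam1, fasted PLIN5 ASO 3, 4 and 5 were highest.

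For Acta2 the closest were the smooth muscle myosin genes Myh11 (Pearson r 0.95, Spearman rho 0.97) and Myl9 (0.89 and 0.91) and the Wnt inhibitor gene Sfrp1 (0.89 and 0.91). Myh11 had 0.532, 1.01, 15.9, 3.93 and 6.98 CPM in fasted PLIN5 ASO livers 1 to 5, against 1.03, 4.15, 4.68 and 1.27 CPM in fasted control ASO livers 1, 3, 4 and 5. The same libraries were high for Acta2 and Myh11 in both groups. Without the 2 libraries farthest from the median of Acta2, r was 0.92 for Myh11, 0.81 for Myl9 and 0.85 for Sfrp1. With the group means taken out, r of Acta2 was 0.12 with Dcn and 0.68 with Lum. The pericyte and smooth muscle list summed to 123 to 189 CPM in fasted PLIN5 ASO livers and 128 to 137 CPM in fasted control ASO livers. How much the share of vessel wall in each piece of liver adds to Acta2 was not tested.

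**Figure D4:**
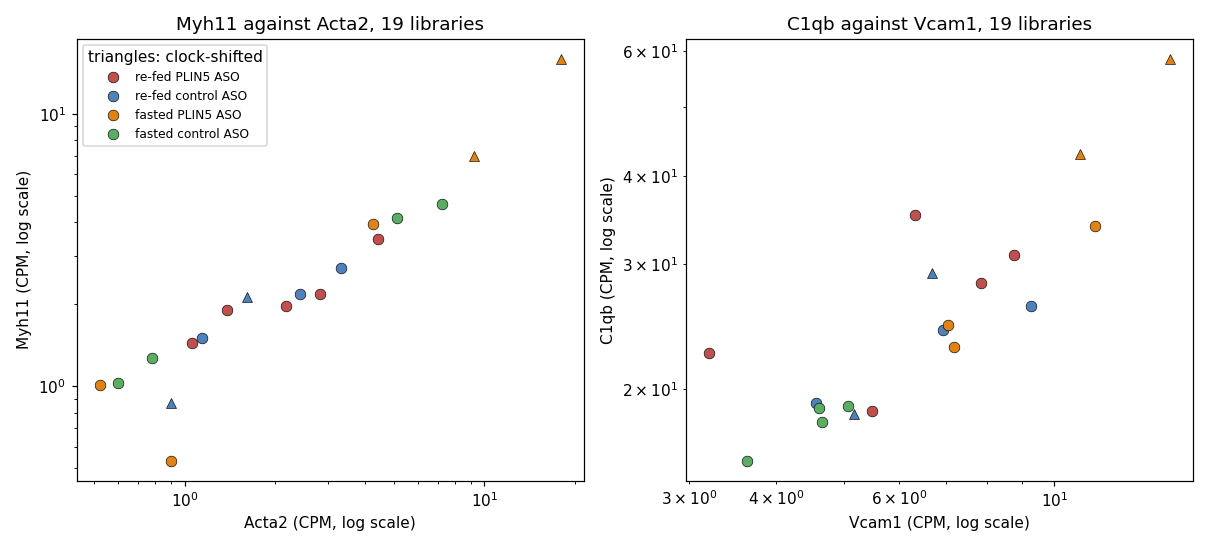
Myh11 against Acta2 (left) and C1qb against Vcam1 (right) in the 19 libraries, in CPM on log axes, with groups by colour and the clock-shifted libraries as triangles. Acta2 and Myh11 rise together over the whole range, from under 1 to 17.99 CPM of Acta2, and fasted PLIN5 ASO 3 and 5 lie at the upper end of both panels.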

How the data were processed

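RNA of 19 mouse livers was sequenced. Per the submitters' processing notes, Subread, HISAT2 2.0.2, Cuffdiff 2.2.1, FastQC and edgeR were used, with builds mm10 and GRCm38 and no role for any. The sources used here do not give the annotation, the strand setting or how shared reads were treated. The authors deposited read counts per gene symbol (whole numbers) and a table of FPKM. The 10 markers and the related lists were chosen with earlier results of these data known, so no list is independent evidence. Related genes are named where called (up to 4 per list and comparison), except some that are not reported here, and like genes by the highest Pearson r of log2(CPM + 0.1) over 19 libraries.

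Counts were fitted in R 4.3.3 with edgeR 4.0.16: TMM scaling, filterByExpr by group (minimum count 10), 1 mean per group in 1 fit of all libraries, quasi-likelihood F tests, and Benjamini-Hochberg adjustment over 13293 genes with a threshold of 0.05. The interaction is the re-fed ASO difference minus the fasted one. The test was checked on simulated data. Alternatives were RLE size factors, no filter or 1 CPM in 4 libraries, DESeq2 1.42.0 and limma 3.58.1. In limma, log2(FPKM + 1) was fitted with and without a minimum mean FPKM of 0.5, and log2(FPKM + 0.1) only with it. Further alternatives were a block on the replicate number, a fit of the compared groups alone and each library left out. The last were libraries 3 and 4 of fasted control ASO summed, no clock-shifted libraries (Arntl above 10 CPM), and offsets for transcript length (25 bins per library). Alternatives were followed for the 10 markers and as counts over all genes, not for related genes. Positions are from GENCODE on GRCm38 and promoters from RefSeq on GRCm38.p6, matched by symbol. Symbols of date form (27 in the count table) matched no gene.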

Additional observations from a re-analysis of the deposited data

Results flagged for a closer look

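Of the 40 sets formed by a marker and a group, 1 held a library far from the others, where chance gives about 1 in 20. It was Tnc in fasted control ASO livers, with 0.457 CPM in library 1 against 0.212 to 0.244 CPM in libraries 3, 4 and 5. The value comes from 16 reads against 6 to 8. Without library 1 the log2 fold change of Tnc with PLIN5 ASO in fasted liver was 2.10 (adjusted p = 0.00440, edgeR).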

How the results depend on the processing

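Of the 10 markers, 3 were called in the fasted ASO comparison. The count was 1 with control ASO 3 and 4 as 1 sample, 1 without the clock-shifted libraries, 1, 0 and 1 in limma on log2(FPKM + 1) filtered, log2(FPKM + 0.1) filtered and log2(FPKM + 1) unfiltered, and 1 to 3 with 1 library left out. Where edgeR called 0 markers, DESeq2 called 1 in the re-fed ASO comparison, 2 for control ASO livers re-fed against fasted and 1 for PLIN5 ASO livers re-fed against fasted. For control ASO livers the re-feeding count was also 1 with only the groups compared, 1 without the clock-shifted libraries, and 1 and 1 in limma on the filtered log2(FPKM + 1) and log2(FPKM + 0.1). With 1 library left out it was 0 to 2 there, 0 to 1 in PLIN5 ASO livers, and 0 in the re-fed ASO comparison and the interaction. Tnc, at a mean under 0.5 FPKM, was not tested in the filtered limma fits.

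Signs of log2 fold changes turned without the clock-shifted libraries for fasted Pdgfrb (-0.0563) and Acta2 (-0.87), re-fed Des (-0.0666), re-feeding of PLIN5 ASO livers for Pdgfrb (0.11), Tnc (0.0195) and Acta2 (0.36), and the interaction of Acta2 (0.93). With the length trend taken out they turned for Reln in re-fed liver (0.16) and in the interaction (0.11). With 1 library left out, values crossed 0 for fasted Reln (-0.00686 to 0.13), for re-fed Des (-0.0193 to 0.14), Reln (-0.15 to 0.0761), Vcam1 (-0.18 to 0.12) and Rgs5 (-0.33 to 0.00508), for Des on re-feeding of control ASO livers (-0.00759 to 0.25), for Dcn (-0.0365 to 0.13), Reln (-0.0501 to 0.17), Tnc (-0.25 to 0.0562) and Rgs5 (-0.0383 to 0.25) on re-feeding of PLIN5 ASO livers, and for the interaction of Acta2 (-1.25 to 0.23). None of these was called, and the cause was not tested.

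Samples of the same replicate number had correlations of -0.21 to 0.17 over 18 pairs, with 7 samples closest to their own number. Each was matched among few samples, so these values cannot tell whether the numbers pair the samples. With the number as a replicate block the counts of markers called were 3, 0, 0, 0 and 0, as without it. Over all genes, the counts called were 156 in the fasted ASO comparison (253 with the block, 22 to 188 with 1 library left out), 183 in the re-fed one (290, 45 to 341), 1759 and 1148 for re-feeding of control and PLIN5 ASO livers (2127 and 1229, 1112 to 2014 and 741 to 1232) and 3 in the interaction (1, 0 to 3). Over the other alternatives they were 36 to 431, 4 to 612, 1139 to 2250, 793 to 1506 and 0 to 93. Depth limits Tnc most, at 6 to 68 reads a library.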
